A study of Saccharomyces cerevisiae with 17 samples.

Results

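The RNA of budding yeast in which lysine 36 of histone H3 is replaced by alanine (H3K36A) was compared with the RNA of yeast lacking SET2, the gene for the enzyme that methylates that lysine. All 5326 genes named in the authors' expression table, out of 5328 rows, enter the comparison; the 2 other rows are named R and name no gene. Of these genes, 3657 reached a mean RPKM of 10 across the 4 genotypes and were compared in detail, and 1669 lay below that minimum. RPKM is reads scaled by gene length and library size. RIM15, with a mean of 10.002, was just inside the minimum, and MDM1, with 9.999, just outside.

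The series holds 17 Saccharomyces cerevisiae libraries, 8 of RNA from 4 genotypes (wild type, set2 deletion, H3K36A and eaf3 deletion) and 9 of DNA, which were not used here. Every RNA sample is labelled as the haploid strain BY4741, mating type MATa, with his3-, leu2-, met15- and ura3- auxotrophies, grown in rich medium (YPD) at 30 °C to mid-log phase. H3K36A and the set2 deletion carry the same label, and the sources used here do not say how either allele was built. Strand-marked libraries, 2 per genotype, were made from total RNA after rRNA depletion.

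Set2 travels with elongating RNA polymerase II and is the only enzyme known to methylate H3K36 in yeast, so a set2 deletion leaves an unmethylated lysine. The alanine substitution removes the lysine itself, together with its methylation, its charge and its acetylation, which Gcn5 of the SAGA complex can add. Eaf3 is a chromodomain protein that binds methylated H3K36 and belongs both to the histone deacetylase complex Rpd3S and to the acetyltransferase NuA4. A comparison of H3K36A with the set2 deletion therefore sets the residue against its methyltransferase.

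The table gives 1 value per gene and genotype, the authors' average over the libraries of that genotype. No spread between libraries can be had from it, so no difference below was tested, and each is a difference between averages. The gene lists were chosen with earlier results of these data known, so their counts are descriptions. Read depth is unknown. "At least 2-fold" below means a log2 ratio of RPKM + 1 of at least 1 in size, which understates differences of genes with low RPKM. In bulk RNA, fewer cells that hold an RNA and less of it in each cell cannot be told apart.

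The genotypes could not be checked on the altered genes, since SET2, EAF3 and the H3 and H4 genes HHT1, HHT2, HHF1 and HHF2 have no row in the table as used here. The mating type could be checked in both mutants compared: STE2, the alpha-factor receptor of MATa cells, had an RPKM of 504 without SET2 and 513 in H3K36A. The 5 MATa-specific genes above the minimum had a median RPKM of 84.6 in wild type, 90.8 without SET2 and 98.6 in H3K36A. In the eaf3 deletion it was 22.1, and why was not tested. Of the auxotrophies, LEU2, MET17 (MET15) and URA3 have no row, while HIS3 had 61.2 in wild type, 72.1 without SET2 and 141 in H3K36A. Small RNA genes (snR genes, SCR1, RPR1 and NME1) took 27.1% of the RPKM sum in the set2 deletion and 29.9% in H3K36A.

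Most genes differed little between the 2 mutants. The median log2 ratio of H3K36A to the set2 deletion was -0.11, with 1376 genes above the set2 deletion and 2281 below it. Because of this shift, values called "relative log2" are given with the median gene set at 0. On that scale 3161 genes, 86.4%, lay within 1.5-fold, and the 5th and 95th percentiles were at -0.61 and 0.74. On the authors' scale, 85 genes (2.32% of those compared) were higher by 2-fold or more in H3K36A and 48 (1.31%) lower by as much, together 3.64%. Counted relative to the median gene there were 97 (2.65%) and 29 (0.793%), and after quantile normalization 86 and 29. Beyond 4-fold on the authors' scale there were 10 higher and 5 lower genes. Medians by chromosome lay between -0.05 and 0.15 relative log2 over 16 chromosomes, and those of 4 gene length classes between -0.02 and 0.01. On the authors' scale, the counts beyond 2-fold were uneven over 4 classes of wild-type RPKM. The lowest class held 43 higher and 3 lower genes. The next classes, in rising order, held 12 and 9, 12 and 19, and 18 and 17. By RPKM in the eaf3 deletion, the lowest class held 16 higher and 13 lower genes. A gene low in wild type could reach the minimum, a mean over the 4 genotypes, through higher values in the mutants. With a wild-type RPKM of 10 or more required, 68 of the 85 higher and 45 of the 48 lower genes remained.

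**Figure D1:**
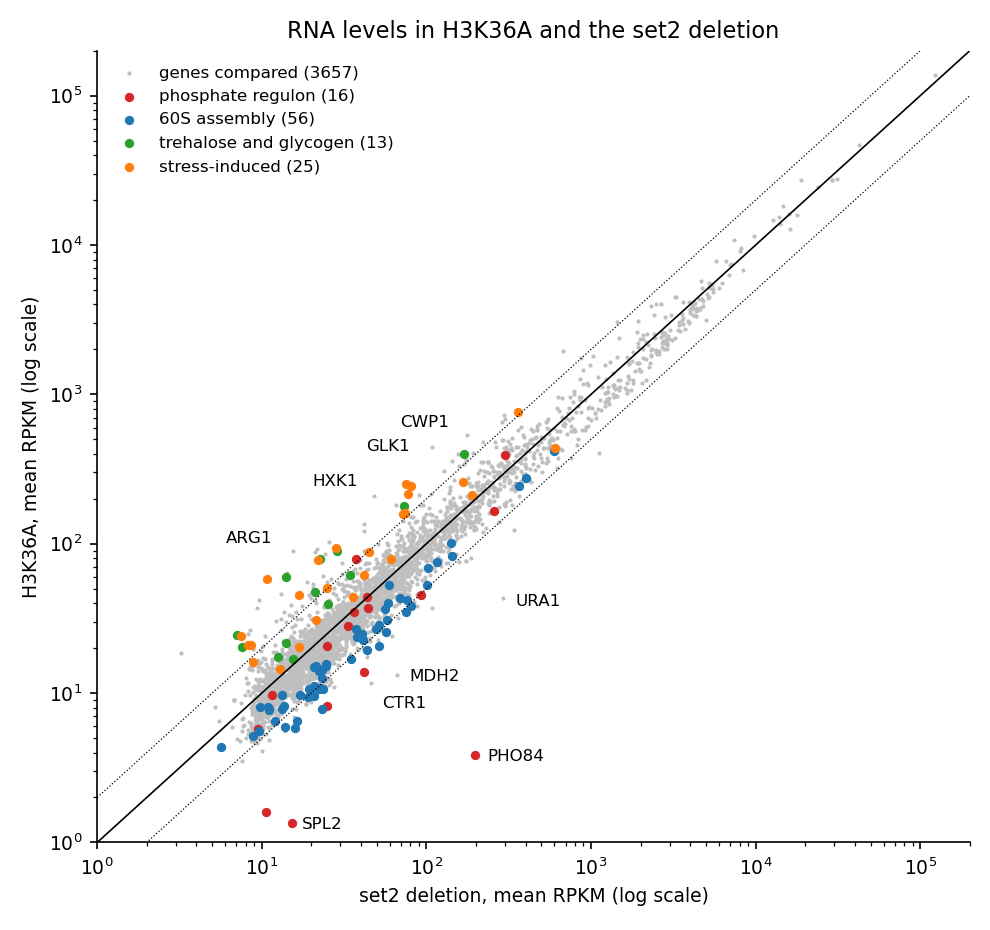
Mean RPKM of each of the 3657 genes compared in the set2 deletion (horizontal, log scale) and in H3K36A (vertical, log scale), with 4 gene lists in colour. The solid line marks equal values and the dotted lines a 2-fold difference; PHO84, at 197 against 3.88, lies farthest from the line.

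Among the genes compared, the 2 lowest ratios of H3K36A to the set2 deletion belonged to PHO84 and SPL2, genes of phosphate uptake. PHO84, which encodes the high-affinity phosphate transporter of the plasma membrane, lies on chromosome XIII at 24037 to 25800 (sacCer3). Its RPKM was 611 in wild type, 197 without SET2, 3.88 in H3K36A and 344 without EAF3. The RPKM in H3K36A was 50.9-fold below that in the set2 deletion, the log2 ratio of RPKM + 1 was -5.35, and the set2 deletion was itself below wild type. An antisense RNA gene, YNCM0001W, is annotated over all 1764 bases of PHO84 and has no row of its own, and whether counting used strand is not stated in the sources used here. SPL2, whose product restrains low-affinity phosphate uptake, had 34.1, 15.2, 1.36 and 27.0 in the same order of genotypes, a log2 ratio of -2.78 between H3K36A and the set2 deletion.

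The phosphate regulon was listed as 22 genes, 16 of which could be compared; PHO89, GIT1 and PHO12 have no row and 3 members lay below the minimum. Of the 16, 6 were lower by 2-fold or more in H3K36A (5 relative to the median gene) and 1 higher by 2-fold or more, with a median relative log2 of -0.34 against 0 for all genes compared. Subunits of the vacuolar polyphosphate polymerase differed among themselves: VTC3 had 41.8 in the set2 deletion against 13.8 in H3K36A, VTC4 92.2 against 45.2, VTC1 258 against 166 and VTC2 44.1 against 37.0. PHM6, a gene of the regulon of unknown function, had 10.6 against 1.60. Among the phosphatases, PHO11 had 24.99 against 8.15, whereas PHO5 had 33.5 against 28.0, PHO8 36.1 against 34.8 and PHO3 301 against 391. The acid phosphatases are close relatives, and the counting of reads that map to several places is not stated in the sources used here.

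The 1 higher member, GPP2 (listed under its older name HOR2), had 37.3 against 78.9 and encodes a glycerol-3-phosphatase of the osmotic stress response rather than a gene of phosphate uptake. The regulators of the pathway were closer to the median gene, at a median relative log2 of -0.13. The activator PHO4 had 24.7 against 20.6, the cyclin PHO80 11.6 against 9.72, its kinase PHO85 43.7 in both, and the kinase inhibitor PHO81 9.52 against 5.74. None of the 4 genes around low-affinity transport was beyond 2-fold. PHO90 had 61.7 against 54.8, PHO91 62.1 against 65.1, PHO87 20.5 against 13.5, and PHO86, which helps Pho84 leave the endoplasmic reticulum, 90.1 against 73.9. In the eaf3 deletion the 4 lowest members stood well above their H3K36A values: besides PHO84 and SPL2 these were PHM6, at 25.6, and VTC3, at 62.7.

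**Figure D2:**
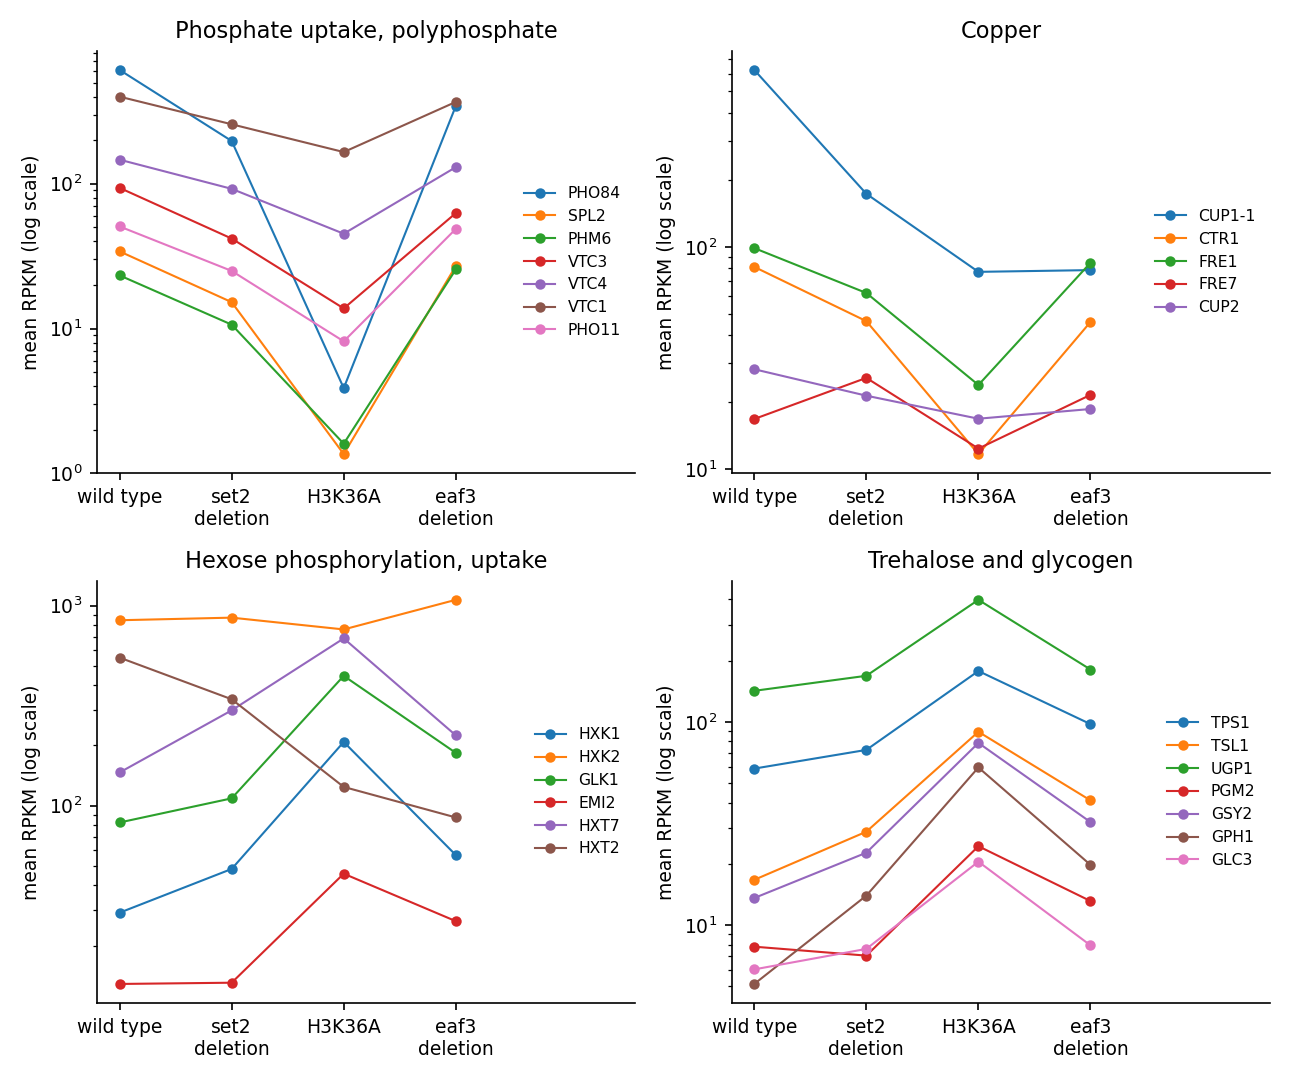
Mean RPKM (log scale) of phosphate, copper, hexose and reserve carbohydrate genes in the 4 genotypes. Each point is the authors' average over the libraries of 1 genotype, and the lines join points of a gene as a guide only; the phosphate genes shown are lowest in H3K36A, and the trehalose and glycogen genes are highest there.

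Copper genes were another group with low values. Of 8 compared, 4 were lower by 2-fold or more in H3K36A, a tandem pair of equal rows counted as 2, and 0 were higher; the median relative log2 was -0.97. CTR1, the high-affinity copper transporter, had an RPKM of 81.3 in wild type, 46.4 without SET2, 11.7 in H3K36A and 46.0 without EAF3. FRE1, a reductase for copper and iron at the cell surface, had 98.7, 62.1, 24.0 and 84.8. The metallothionein genes CUP1-1 and CUP1-2, which bind copper, carry equal values as copies of a tandem repeat: 624, 173, 77.2 and 78.6. How many copies each strain carries was not measured. The reductase gene FRE7, just short of the limit on the log2(RPKM + 1) scale, had 25.8 in the set2 deletion against 12.4 in H3K36A, CUP2 (the activator of CUP1) 21.4 against 16.9, MAC1 (the activator of CTR1 and FRE1) 13.7 against 12.5, and CTR2, which exports copper from the vacuole, 50.5 against 48.5. The genes listed under iron stood mostly on the other side of the median gene: 0 of 9 were beyond 2-fold and their median relative log2 was 0.31. The multicopper oxidase FET3, which acts in iron uptake, had 301 against 394, the iron transporter SMF3 42.3 against 60.3, and the siderophore transporter ARN2 17.1 against 10.1. FIT2, a cell wall mannoprotein that retains siderophore iron, had 108 against 37.1 and its relative FIT3 368 against 209. Neither is among the 9, and FRE1 was listed with copper, so the contrast of copper with iron depends on how genes were listed.

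Genes that build ribosomes were lower in H3K36A nearly as a body, by less than 2-fold for most. Of 56 genes for assembly of the large (60S) subunit, 12 were lower by 2-fold or more (7 relative to the median gene) and 0 higher. Their median relative log2 was -0.57, and 0 lay above the median gene. RRP1 had 59.96 in wild type, 23.1 without SET2, 7.81 in H3K36A and 13.96 without EAF3, and PUF6 56.6, 15.8, 5.87 and 9.84. RRS1 had 51.7 in the set2 deletion against 20.7 in H3K36A, the RNA helicase DBP9 16.4 against 6.53, NSA2 43.7 against 19.5 and NOC2 13.9 against 5.90. At the other end, RSA4 had 59.3 against 53.0 and the helicase SPB4 9.80 against 8.11.

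The small-subunit processome, which cuts and folds the precursor of the small subunit, had 48 members compared, 3 of them lower by 2-fold or more (1 relative to the median gene) and 0 higher, with a median of -0.51 and 0 above the median gene. The 3 were the helicase ROK1 (10.1 in the set2 deletion against 4.12 in H3K36A), UTP8 (24.2 against 11.2) and LTV1 (10.98 against 4.85), an export factor of the small subunit. Core proteins of the small nucleolar ribonucleoproteins (7 compared, 0 beyond 2-fold) had a median of -0.59, with NOP56 at 97.8 against 57.4 and NOP10 at 301 against 178. Subunits of RNA polymerases I and III, which transcribe rRNA and tRNA, had 0 of 18 past 2-fold, with a median of -0.53. RPC25 had 16.3 against 8.70 and RPA34 17.7 against 9.77. All 18 and all 7 lay below the median gene. In both assembly lists the set2 deletion was below wild type as well, at median log2 ratios of -0.95 and -0.80 on the authors' scale, against -1.80 and -1.46 for H3K36A. These 2 ratios share the wild-type libraries.

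Genes for ribosomal proteins and translation factors stood closer to the median gene than the assembly genes did. Cytosolic ribosomal protein genes had 0 of 136 beyond 2-fold, a median relative log2 of -0.25 and 9 members above the median gene; RPL27B was lowest, at 820 in the set2 deletion against 461 in H3K36A. Translation factors had a median of -0.27 with TIF4631, the initiation scaffold eIF4G1, at 135 against 74.8. Their 1 member beyond 2-fold was higher: ANB1, the form of eIF5A known from cells short of oxygen, at 12.1 against 30.5. ANB1 had 9.72 in wild type and passed the minimum through the mutants; with a wild-type RPKM of 10 or more required, 0 of 34 translation factors were beyond 2-fold. For the mitochondrial ribosome, 0 of 58 protein genes passed 2-fold and the median was -0.03. Other lower genes close to rRNA and tRNA processing were NOP9 (27.5 against 11.02), FCF2 (13.9 against 5.55), LHP1, the yeast La protein (83.9 against 40.5), and MRM1, a mitochondrial rRNA methyltransferase (25.5 against 11.3).

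**Figure D3:**
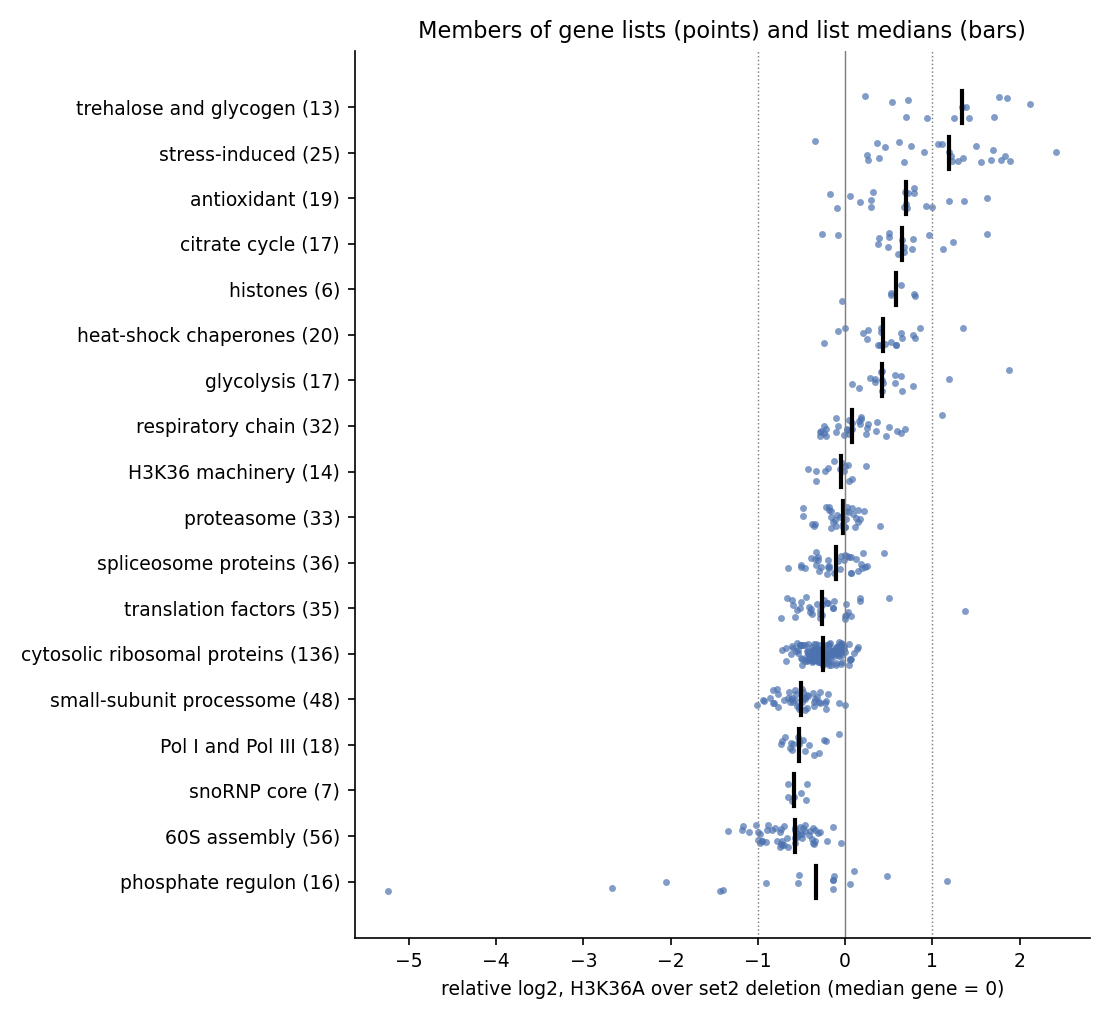
Relative log2 ratio of H3K36A to the set2 deletion (horizontal, median gene at 0) for every compared member of 18 gene lists, 1 point per gene, with the number of members in brackets. Black bars are list medians and dotted lines a 2-fold difference; the ribosome assembly lists lie to the left of 0 and the reserve carbohydrate list to the right.

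Genes of the reserve carbohydrates trehalose and glycogen were higher in H3K36A throughout. Of 13 compared, 8 were higher by 2-fold or more, 0 lower, and all 13 lay above the median gene; the list median was a relative log2 of 1.34, or 1.03 over all 17 with a row. GPH1, glycogen phosphorylase, had an RPKM of 5.13 in wild type, 13.9 without SET2, 59.6 in H3K36A and 19.8 without EAF3. Glycogen synthase GSY2 had 13.6, 22.7, 78.7 and 32.1, and the branching enzyme GLC3 6.05, 7.63, 20.5 and 7.94. In the trehalose branch, the synthase TPS1 had 72.7 in the set2 deletion against 178 in H3K36A, its regulatory subunit TSL1 28.8 against 89.3, the phosphoglucomutase PGM2 7.07 against 24.4, UGP1, which makes UDP-glucose for both reserves, 168 against 398, and the neutral trehalase NTH1 21.1 against 47.9. Enzymes of synthesis and of breakdown were thus among the higher genes together. GPH1, GLC3 and PGM2 had wild-type values below 10 and passed the minimum through the mutants, so they had to differ between genotypes; with a wild-type RPKM of 10 or more required, 5 of 9 were higher by 2-fold or more.

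Stress-induced genes outside that list, 25 compared, had 13 higher by 2-fold or more (15 relative to the median gene), 0 lower, and a median relative log2 of 1.195, or 0.79 over all 34 with a row. DDR2, a gene induced by many stresses, had 8.39 in wild type, 10.8 without SET2, 57.8 in H3K36A and 22.4 without EAF3. GAD1, glutamate decarboxylase, had 14.7, 21.9, 77.7 and 22.3, and HOR7 29.0, 74.96, 250 and 107. TFS1, an inhibitor of a vacuolar carboxypeptidase, had 28.2 in the set2 deletion against 93.0 in H3K36A, UBI4 (polyubiquitin) 80.2 against 243, and RTC3 7.47 against 24.0. Not every stress gene shared this: HSP26, a small heat-shock protein gene, had 16.7 against 20.3, HSP30 190 against 210, and GPP1 603 against 439. Antioxidant genes had 3 of 19 higher by 2-fold or more and a median of 0.70. These were catalase CTT1 (8.50 against 26.4), the mitochondrial peroxiredoxin PRX1 (20.5 against 50.3) and the thioredoxin peroxidase AHP1 (1436 against 3034). DDR2, RTC3, RTN2, SOL4 and CTT1 had wild-type values below 10 and passed the minimum through other genotypes, so they had to differ. With a wild-type RPKM of 10 or more required, 9 of 21 stress-induced genes and 2 of 18 antioxidant genes were higher by 2-fold or more. AHP1 had the highest RPKM in the set2 deletion of all genes higher by 2-fold or more.

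Chaperones had 1 of 20 higher by 2-fold or more and a median of 0.44. That gene, HSP82, one of the Hsp90 genes, had 106 in wild type, 30.7 without SET2, 73.9 in H3K36A and 32.1 without EAF3, so H3K36A lay between wild type and the other mutants. SSA1, an Hsp70 gene, had 1782, 1483, 2401 and 1398.

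Hexose phosphorylation was the step of sugar use that differed most. Of the 4 hexokinase and glucokinase genes, 3 were higher by 2-fold or more in H3K36A. HXK1 had an RPKM of 29.2 in wild type, 48.3 without SET2, 208 in H3K36A and 56.7 without EAF3. The glucokinase GLK1 had 82.5, 109, 445 and 184, and its relative EMI2 12.9, 13.1, 45.8 and 26.5. HXK2, the hexokinase that dominates during growth on glucose, had 844, 870, 760 and 1068. The RPKM ratio of HXK2 to HXK1 was therefore 18.0 in the set2 deletion and 3.65 in H3K36A. Of 7 hexose transporters compared, HXT7 (300 in the set2 deletion against 685 in H3K36A) and HXT6 (287 against 657) were higher by 2-fold or more; they are near-identical copies that can share reads. HXT2 was lower, at 549 in wild type, 340, 124 and 87.4 in the eaf3 deletion, and the low-affinity transporters HXT1 and HXT3 had 230 against 128 and 1245 against 917.

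Downstream of hexose phosphorylation, 2 of 17 glycolytic genes were higher by 2-fold or more, both minor isozymes: PDC5, a pyruvate decarboxylase, at 24.2 against 84.8, and PYK2, a pyruvate kinase, at 8.85 against 19.8, with 8.26 in wild type. PYK2 passed the minimum through H3K36A and the eaf3 deletion, so it had to differ between genotypes. With a wild-type RPKM of 10 or more required, 1 of 16 was higher by 2-fold or more. All 17 lay above the median gene, at a median relative log2 of 0.42, with the glyceraldehyde-3-phosphate dehydrogenase TDH3 at 18871 against 27275. The citrate cycle had 3 of 17 higher by 2-fold or more and a median of 0.65. These were CIT1, citrate synthase (41.8 against 122), ACO1, aconitase (219 against 480), and IDH2, isocitrate dehydrogenase (170 against 345). Of the respiratory chain, 1 of 32 genes was higher by 2-fold or more, COX5B (30.8 against 62.7), and the list median was 0.07 relative to the median gene and -0.03 on the authors' scale. Mitochondrial porin POR1, in no list, had 385 in wild type, 864 without SET2, 1754 in H3K36A and 826 without EAF3.

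Only 4 of 17 glucose-repressed genes with a row passed the minimum, so the list cannot be read from them. MDH2, the cytosolic malate dehydrogenase that feeds gluconeogenesis, had 53.3 in wild type, 66.0 without SET2, 13.2 in H3K36A and 97.5 without EAF3. The other members above the minimum were ALD6 (795 in the set2 deletion against 566 in H3K36A), ADH2 (854 against 1266) and the invertase SUC2 (34.5 against 52.4). Over all 17, 3 were lower by 2-fold or more and 0 higher, and the median relative log2 was 0.04. Besides MDH2 the lower genes were PCK1, at 5.82 against 1.25, and FBP1, at 12.5 against 3.59, which encode enzymes particular to gluconeogenesis.

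Many of the genes higher by 2-fold or more belong to families in which another member was nearer the median gene. Of 26 pairs of related genes, chosen after the values were seen, 24 could be compared, and 21 of these had a first-named gene higher by 2-fold or more in H3K36A. The second-named gene was higher by 2-fold or more in 1 of the 21 (EMI2, beside GLK1) and within 1.5-fold of the median gene in 18. Among all genes compared these shares were 2.32% and 86.4%. Such counts cannot show a shift of the second-named genes to one side within 1.5-fold. The relative log2 ratios of the second-named genes ranged from -0.35 to 1.84. The minimum left out CTR1 beside CTR3 and GSY2 beside GSY1; GSY1 had 6.25 against 12.7, a relative log2 of 1.02. PDC5 stood beside PDC1 (14656 in the set2 deletion against 18256 in H3K36A), HSP82 beside HSC82 (539 against 667), and CIT1 beside the peroxisomal CIT2 (35.6 against 50.9). SER3 and SER33, phosphoglycerate dehydrogenases of serine synthesis, stood in opposite order: SER3 had 23.6 against 61.3 and SER33 58.5 against 44.2, so the ratio of SER33 to SER3 was 2.48 in the set2 deletion and 0.721 in H3K36A. SER3 overlaps the regulatory RNA gene SRG1 by 77 bases. Of the 3 pairs with a lower first gene, MDH2 stood beside the mitochondrial MDH1, at 56.6 against 84.4. Since the first gene of each pair was chosen for its ratio, the difference within a pair is a description only.

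**Figure D4:**
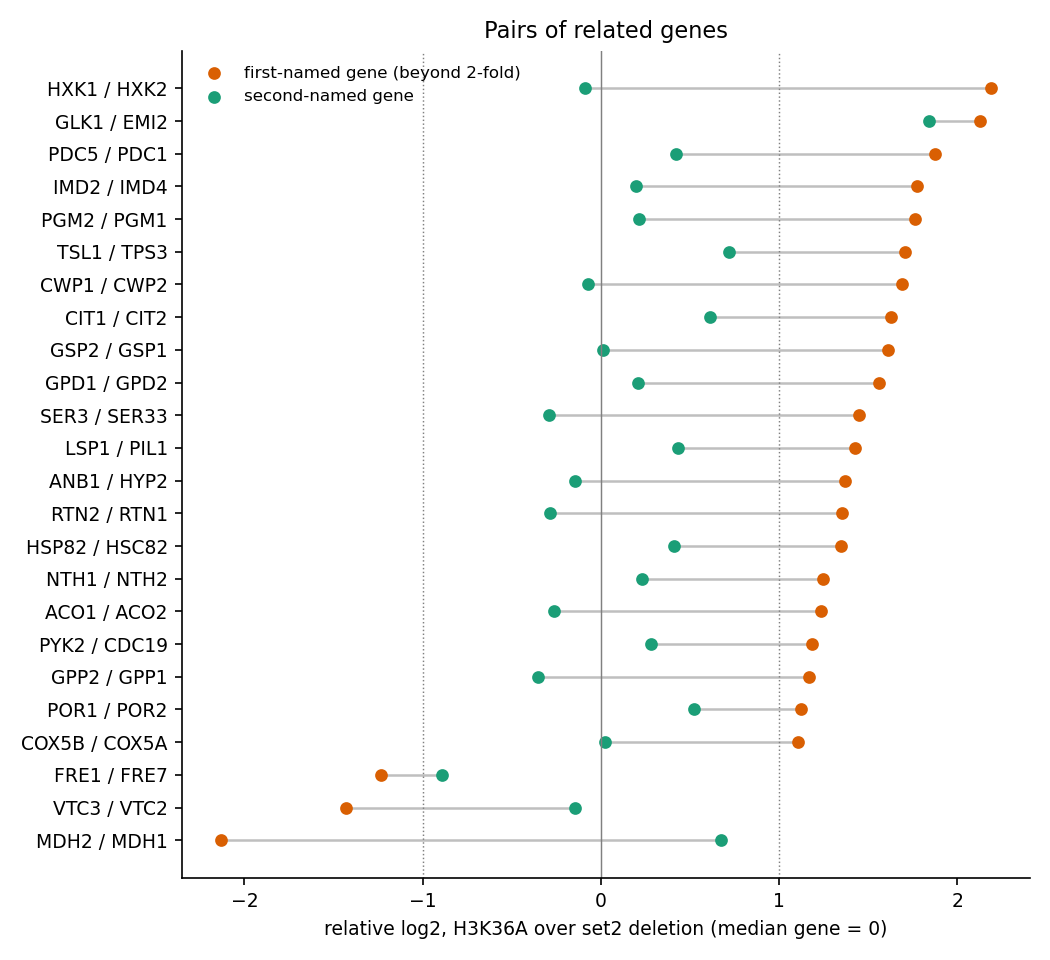
Relative log2 ratio of H3K36A to the set2 deletion (horizontal, median gene at 0) for 24 pairs of related genes, with the first-named gene in orange and the second in green. Dotted lines mark a 2-fold difference; the second genes of the upper 21 pairs range from -0.35 to 1.84.

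Amino acid genes were mixed. ARG1, argininosuccinate synthetase of the arginine pathway, had the highest log2 ratio of all genes compared, 2.46. Its RPKM was 30.4 in wild type, 15.4 without SET2, 89.3 in H3K36A and 12.3 without EAF3, so H3K36A was the one mutant above wild type. The next arginine gene was ARG56, which encodes a pair of enzymes of the pathway, with 19.5, 13.0, 26.4 and 9.55 in the same order and a relative log2 of 1.07. Lower ratios were those of CPA1 at 75.7 in the set2 deletion against 112 in H3K36A, ARG7 at 31.2 against 40.7, ARG8 at 30.8 against 36.4 and ORT1 at 13.1 against 14.97. Of all 48 targets of the activator Gcn4 compared, 2 were higher by 2-fold or more, ARG1 and SER3 (4 relative to the median gene, with HIS3 and ARG56), and 0 lower. Their median relative log2 was 0.20, and that of the 8 lysine genes -0.21, with LYS9 at 105 against 68.0. Of 12 sulfur and methionine genes, 0 passed 2-fold, and their median was 0.31; MET10 had 21.2 against 41.9. Of 12 amino acid breakdown genes, UGA1, the transaminase of GABA use, had 20.9 against 88.7, and BNA1, which acts in the breakdown of tryptophan to NAD, 21.2 against 45.2; 0 were lower by 2-fold or more. Of 16 genes compared from the list of amino acid and peptide permeases, MMP1, which imports S-methylmethionine, was the 1 beyond 2-fold, at 43.9 against 17.5.

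Nucleotide genes held a few large ratios, and the pyrimidine and purine lists differed in their medians. URA1, dihydroorotate dehydrogenase of pyrimidine synthesis, had 261 in wild type, 293 without SET2, 43.5 in H3K36A and 426 without EAF3. URA4, the enzyme of the step before it, had 85.1, 87.3, 38.6 and 134. These 2 were the members beyond 2-fold among 15 compared; the first enzyme of the pathway, URA2, had 169 in the set2 deletion against 175 in H3K36A and URA5 487 against 396. The median of the list was 0.01 relative to the median gene and -0.10 on the authors' scale. Of 19 purine genes, 1 was higher by 2-fold or more, IMD2, an IMP dehydrogenase, with 25.6 in wild type, 41.9 without SET2, 135 in H3K36A and 14.6 without EAF3. Its relatives IMD3 (395 against 375) and IMD4 (663 against 706) were near the median gene. The purine list had a median of -0.22 relative to the median gene and -0.32 on the authors' scale. Beside the counts of both lists, 2.32% of all genes compared were higher and 1.31% lower by 2-fold or more. HPT1, which salvages hypoxanthine and guanine and was in no list, was lower, at 187 against 80.5. HUG1, an inhibitor of ribonucleotide reductase induced by DNA damage, was higher, at 9.33 against 37.4.

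Lipid and cell wall genes held members beyond 2-fold in both directions. OLE1, the fatty acid desaturase, had 801 in wild type, 1114 without SET2, 404 in H3K36A and 890 without EAF3, the highest RPKM in the set2 deletion of any gene lower by 2-fold or more. Ergosterol genes had 0 of 24 beyond 2-fold, with IDI1 at 45.7 against 23.3 and ERG10 at 287 against 495. Their median was 0.02 relative to the median gene and -0.09 on the authors' scale. Of 33 cell wall genes, CWP1 (177 against 532) and HPF1 (175 against 363), both mannoproteins, were higher by 2-fold or more, and FIT2 lower. The median of the cell wall list was 0.01 relative to the median gene and -0.10 on the authors' scale. Over all genes compared, 2.32% were higher and 1.31% lower by 2-fold or more. YHB1, a flavohemoglobin that detoxifies nitric oxide, was just past the 2-fold limit on the lower side, at 752 against 374, and YGP1, a secreted glycoprotein, was higher, at 359 against 764.

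The genes closest to the mutated pathway showed no member beyond 2-fold. With 3.64% of all genes compared beyond it, lists this short could hold 0 without standing apart from other genes. Of 14 genes for enzymes, readers and chaperones around H3K36, 0 were beyond 2-fold, with relative log2 ratios from -0.43 to 0.24. GCN5, the acetyltransferase that can modify H3K36, had 11.5 in the set2 deletion against 7.63 in H3K36A. The demethylase RPH1 had 10.7 against 11.8, and RPD3 and SIN3, of the deacetylase complex, had 30.1 against 27.2 and 38.4 against 37.7. NuA4 had 0 of 5 beyond 2-fold, with EAF6 at 11.1 against 7.53 and ACT1, which encodes actin, at 2815 against 3288. Of 6 histone genes, H3 and H4 not among them, 0 passed 2-fold, and their median relative log2 was 0.58. HTB2, for H2B, had 894 against 1448, HTA1, for H2A, 987 against 1581, and the variant HTZ1 84.4 against 76.1.

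The series concerns splicing, and both splicing lists were near the median gene. Spliceosome proteins had 0 of 36 compared beyond 2-fold, a median relative log2 of -0.10 and a range from -0.65 to 0.45, and 48 of the 84 with a row lay below the minimum. CWC21 had 29.4 in the set2 deletion against 17.0 in H3K36A, and NAM8, of the U1 particle, 25.8 against 32.9. Genes with an intron, outside the ribosomal proteins, had 2 of 92 higher by 2-fold or more, 0 lower, and their median was 0.05, or -0.05 on the authors' scale. The shares over all genes compared were 2.32% higher and 1.31% lower. The 2 higher intron genes were YSC84, an actin-binding protein of endocytosis (15.1 against 38.8), and COX5B. RPKM per gene does not separate spliced from unspliced RNA.

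Other lists defined by gene class gave 0 beyond 2-fold among the genes compared: proteasome (33, with RPT3 at 74.4 against 49.2), MATa-specific (5, with AGA2 at 90.8 against 114), haploid-specific (13, with GPA1 at 25.2 against 14.6), COS genes (9, with COS3 at 82.1 against 107), and small RNA genes (40, with SNR68 at 67.2 against 105). The small RNA genes had a median relative log2 of 0.23. Within 20 kb of a chromosome end, 3 of 97 genes were higher by 2-fold or more (HXK1, IMD2 and MSC1) and 3 lower (PHO11, MMP1 and YMR321C). Farther from the ends, 78 of 3503 were higher and 41 lower. Beside all these counts, 3.64% of all genes compared were beyond 2-fold. Meiosis genes and seripauperins had no member above the minimum.

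Below the minimum, 15 genes were higher by 2-fold or more in H3K36A and 6 lower. VPS73 had 4.18 in the set2 deletion against 19.4 in H3K36A, RNR3, a damage-induced subunit of ribonucleotide reductase, 2.23 against 7.06, BNA2 1.74 against 6.69 and FLO11, an adhesin of the cell surface, 2.78 against 9.03. ISF1 was lower, at 10.3 against 4.66. VPS73, RNR3 and ISF1 were named after their values were seen. No value in the table is under 1, so no row exists for genes below that in some genotype, and larger ratios among weakly expressed genes could not be seen.

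Some of the extreme values belong to rows that can share reads with another gene. YLR154C-G, at 3.23 in the set2 deletion against 18.5 in H3K36A, TAR1, at 25.6 against 103, YLR154W-B, at 9.64 against 41.9, and YLR154W-E, at 673 against 1954, lie in the rDNA on chromosome XII, where rRNA left after depletion can enter. Their order in wild type was another, with 83.9 for YLR154C-G and 9.78 for TAR1. YFR052C-A (21.7 against 91.7) overlaps HXK1, and YCL042W (23.0 against 80.4) overlaps GLK1 by 106 bases. On the lower side, YHR219C-A, YML133W-B and YNL339W-B carry the same values, 18.5 against 8.45. Of all rows, 28 share all 4 values with another; without them 85 genes were higher by 2-fold or more and 44 lower.

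The ratio of H3K36A to the set2 deletion was last set beside that of the eaf3 deletion to wild type, which shares no library with it. Across the 3657 genes, Pearson's r was 0.50 and Spearman's rho 0.56; genes are not independent replicates, and the 4 columns share gene models and any dependence on gene length or base composition. Of the 85 genes higher in H3K36A, 20 were also higher by 2-fold or more in the eaf3 deletion, 23.5% of that list and 35.7% of the 56 genes (1.53%) that were higher there. Besides rDNA rows these were led by GPH1 (5.13 in wild type against 19.8 in the eaf3 deletion), HOR7 (29.0 against 107), PDC5 (13.5 against 43.1) and CWP1 (52.9 against 173). Among the shared higher genes, GPH1, DDR2, YPC1, YFR052C-A, TAR1 and YLR154W-B had wild-type values below the minimum and passed it through the mutants. Their wild-type values ran from 4.72 to 9.78. They had to differ between genotypes, so part of this overlap can come from the selection. The overlap was not recounted with the minimum set on wild type. Of the 48 lower genes, 30 were also lower by 2-fold or more in the eaf3 deletion, 62.5% of that list and 5.13% of the 585 genes (16%) that were lower there. HXT2, RRP1, PUF6, RRS1, DBP9 and FCF2 led these, with FCF2 at 38.7 in wild type against 6.77. Over all genes compared, the median log2 ratio of the eaf3 deletion to wild type was -0.36 on the authors' scale.

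The phosphate genes lower by 2-fold or more and the copper uptake genes CTR1 and FRE1 were not among those 30. The metallothionein genes CUP1-1 and CUP1-2 were, at 624 in wild type against 78.6 in the eaf3 deletion. PHO84, SPL2, PHM6, VTC3, PHO11, VTC4, CTR1 and FRE1, together with URA1, URA4, MDH2 and OLE1, were lower by 2-fold or more in H3K36A than in the set2 deletion and within 2-fold of wild type in the eaf3 deletion. Opposite directions beyond 2-fold occurred for 3 genes. ARG1 and HSP82 were higher in H3K36A than in the set2 deletion and lower in the eaf3 deletion than in wild type. FIT2 was lower in H3K36A than in the set2 deletion and had 133 in wild type against 271 in the eaf3 deletion.

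**Figure D5:**
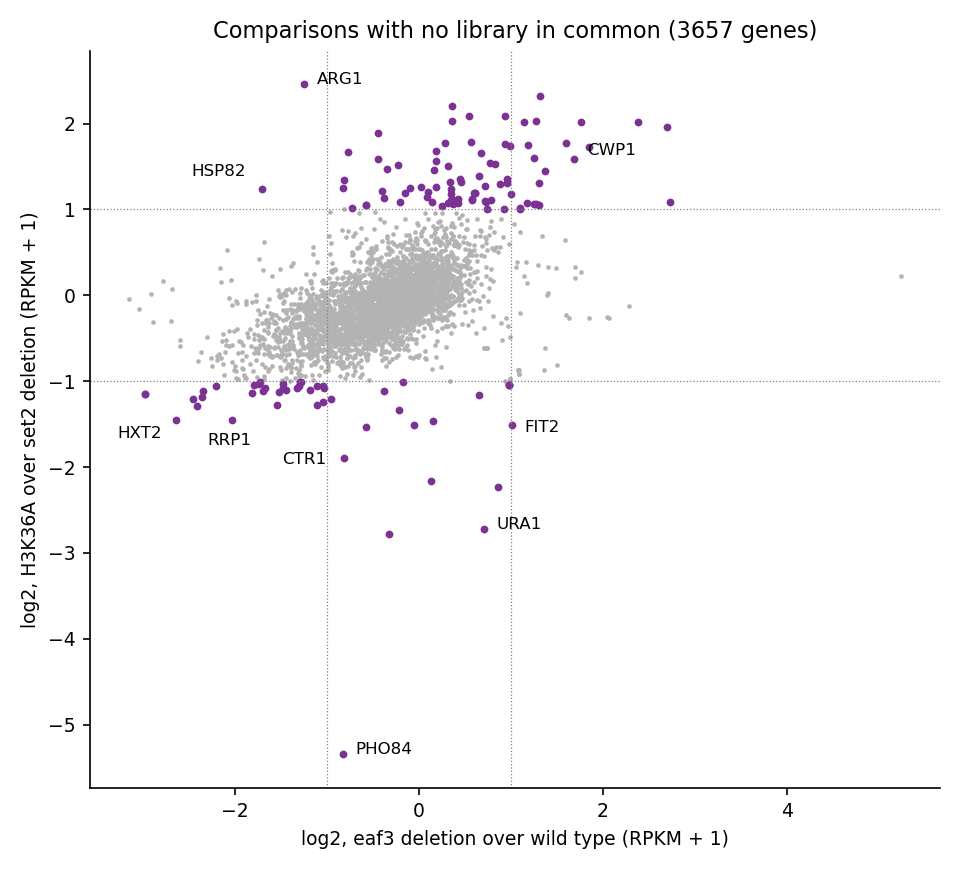
Log2 ratio (RPKM + 1) of the eaf3 deletion to wild type (horizontal) and of H3K36A to the set2 deletion (vertical) for 3657 genes, with genes beyond 2-fold on the vertical axis in purple. Dotted lines mark a 2-fold difference; PHO84 and URA1 lie low on the vertical axis and within 2-fold on the horizontal one.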

How the data were processed

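RNA libraries (8, of 4 genotypes) are represented by a table in which the authors deposited RPKM values, as means of the 2 libraries of a genotype, per the file headers and labels. CASAVA, TopHat2 2.0.14 and sacCer3 are named in the submitters' processing notes; no source used here gives the RPKM tool, gene models, use of strand or handling of reads with several positions. Read depth is therefore unknown, and no interval or floor was computed. Lines emptied for this work were skipped. Gene names and coordinates came from the RefSeq table of assembly R64 (the build of sacCer3), matching 5176 of 5326 names. With averages only, the planned fit per library could not be run and no p-value is given.

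For each gene, log2((H3K36A + 1)/(set2 deletion + 1)) was computed with Python 3.11.15, pandas 2.3.3 and numpy 2.4.6 (figures with matplotlib 3.10.9), for genes whose mean RPKM reached 10, and checked on simulated data. Alternatives were a pseudocount of 0.1 or 5, other minimums, scalings and folds, and leaving out repeated rows. The gene lists (44) and members were chosen with earlier results of these data known. Named are the altered genes, those with the 15 highest and 15 lowest ratios, up to 6 members per list beyond 2-fold or up to 2 where none passed, all members of short lists with a gene beyond 2-fold, the 8 most abundant per direction, 6 per direction shared with the eaf3 deletion, and genes sharing reads; others were named after their values were seen.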

Additional observations from a re-analysis of the deposited data

How the results depend on the processing

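Counts beyond 2-fold were 85 higher and 48 lower in H3K36A than in the set2 deletion. The lower count was 24 with a pseudocount of 5, 29 after quantile normalization and 29 relative to the median gene, and all genes counted in each of these were among the 48. At 1.5-fold the counts were 213 higher and 363 lower, and at 3-fold 24 and 6. At 2-fold the higher count ranged from 67 to 100 over 8 alternatives, and the lower count from 34 to 66 over those not named above. The median log2 ratio was -0.11, and -0.03 after quantile normalization and -0.04 without small RNA genes. None of the 30 most extreme genes turned its direction under 8 alternatives, 1 came within 2-fold with a pseudocount of 5, and 25 of them remained when wild-type RPKM had to reach 10. The list medians of the respiratory chain, cell wall, pyrimidine, ergosterol and intron genes had opposite signs under different scalings. No paired analysis was possible because the table holds averages per genotype, so fits with a replicate block or without a replicate were not run. The promoter motifs were not searched, as no promoter sequence was given.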

Other observations

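The following gene groups were assembled after their values were seen, so their counts, like those of the lists above, are descriptions only. Vacuolar proteases were higher in H3K36A than in the set2 deletion: 3 of 8 were higher by 2-fold or more, and all 8 lay above the median gene (list median 0.93 in relative log2). The aminopeptidase APE1 had an RPKM of 12.7 in wild type, 14.3 without SET2, 63.9 in H3K36A and 19.0 without EAF3. PEP4, the aspartyl protease that activates the others, had 154, 295, 730 and 380. ATG42, a carboxypeptidase, had 19.9 in the set2 deletion against 43.2 in H3K36A, protease PRB1 68.5 against 123 and carboxypeptidase PRC1 291 against 495. Of 7 autophagy genes above the minimum, 2 were higher by 2-fold or more, ATG41 (21.8 against 77.1) and ATG33 (21.5 against 47.8), while ATG5 had 35.2 against 30.7 and ATG27 73.3 against 66.3.

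In the GABA shunt, GAD1 (21.9 against 77.7) and UGA1 (20.9 against 88.7) were both higher by 2-fold or more, and the remaining enzyme, UGA2, which was below the minimum, had 8.66 against 14.5. Among 10 serine and glycine genes, SER3 and GCV2, a subunit of glycine decarboxylase (8.30 against 24.9), were higher by 2-fold or more, with GCV1 (10.1 against 20.8) joining them relative to the median gene. The median relative log2 of this group was 0.50. Of 9 fatty acid genes, OLE1 was lower and ELO1, an elongase, higher (107 against 216), and MGA2, an activator of OLE1, had 10.6 against 5.30.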
